A study of Sus scrofa with 7 samples.

Results

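The genes described here are 37 members of the transforming growth factor beta (TGF-beta), bone morphogenetic protein (BMP) and activin pathway, taken from 20653 genes in an RNA sequencing table of pig heart muscle. They were chosen by name, as every row whose gene symbol equals that of a listed ligand, latency protein, receptor, SMAD, inhibitor or target, and each gene is represented by its transcript row of highest mean value. This rule used no difference between the groups. The list itself was drawn up with earlier results of these data known, so such differences may have played a part. The tissue came from the anteromidventricular myocardium of male farm pigs, 14 weeks after an infarct of the left circumflex (LCX) artery. In 4 libraries, labelled S100a1, the pigs were given a gene therapy vector, adeno-associated virus type 5 (AAV5), with human S100A1, which encodes a calcium-binding protein of heart muscle. In the 3 control libraries, labelled hrLuc, the same kind of vector carried luciferase, a reporter enzyme. All 7 animals had therefore had an infarction and received a virus, and no animal without either is compared here. The labels used here do not give the transgene's promoter, the pigs' age or how far the samples lay from the scar. Each title names a pig with its own number.

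TGF-beta is secreted in a latent complex, held in the matrix by latent TGF-beta binding proteins, and acts once it is released. The active dimer brings together type I and type II receptor kinases, which phosphorylate SMAD2 and SMAD3 for TGF-beta and activin, or SMAD1, SMAD5 and SMAD9 for BMPs, and these enter the nucleus with SMAD4. In the infarcted heart the TGF-beta arm is known for turning fibroblasts into matrix-secreting myofibroblasts, whereas SMAD6, SMAD7, SKI, SKIL and the secreted follistatins and gremlin restrain the pathway.

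Each library held 28679280 to 38409495 reads with 1 row kept per gene, and values are normalized read counts, that is, reads divided by 1 size factor per library. The 11 cardiomyocyte markers found by symbol had reads in every library. The pig S100A1 gene stood at 7461, 6568 and 9125 in hrLuc and 5950.1, 6804, 6548 and 4429 in S100a1 (log2 fold change -0.39 ± 0.16, adjusted p = 0.577 in limma), which does not check the labels, since the vector held the human sequence. S100a1 replicate 1 had the lowest summed fibroblast markers (87753, against 110864 to 156029 in the other 6 libraries) and was lowest in 8 of 10 of them. Its cardiomyocyte markers went both ways, highest of the 7 libraries in 5 of 11 and lowest in 2, and their sum without TTN, the most abundant, was 2168454 against 1855808 to 2130033. It also had the lowest value of the 7 libraries in 12 of the 35 members tested. The libraries also did not group by vector alone. By the chi-square of 2 libraries' reads per gene, hrLuc replicate 2 and S100a1 replicate 4 were the closest of all 21 pairs (19.1), although hrLuc replicate 2 stood at 39.3 and 39.0 from its own group and S100a1 replicate 4 at 39.7 to 44.0. With both left out, an alternative chosen after seeing the data, 0 members passed the adjusted threshold in limma. In that fit 3 had an unadjusted p under 0.05 (TGFB3, INHBB and FST) and 22 were negative, and the shares of all genes are not given here.

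No member passed the threshold of an adjusted p under 0.05, and most differed little between the groups. In the libraries labelled S100a1 the ligand genes TGFB3 and INHBB lay below every hrLuc library, and LTBP1, TGFBR3, SMAD3 and FST lay above every one. Fold changes are S100a1 over hrLuc on the log2(value + 0.5) scale, with standard errors, from limma fitted over 15660 genes that reached 10 normalized counts in 3 or more libraries. Of the 37 members, 35 passed this filter, and GDF15 and GREM1 did not. The adjusted p of the 35 ran from 0.535 to 0.980 in limma. Adjusted calls were made for 0.0128% of all genes tested, 1 gene (0.00639%) higher and 1 gene (0.00639%) lower. On whole reads recovered from the table, edgeR (which called 0.0128% of all genes) and DESeq2 (0.569%) also called 0 members.

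At an unadjusted p under 0.05 there were 5 of 35 members in limma, or 14.3%, against 8.26% of all genes. These were TGFB3, INHBB, LTBP1, TGFBR3 and FST. edgeR gave the same 5 and DESeq2 4 of them, without FST, while 8.51% and 8.66% of all genes had such a p. The groups did not overlap in 6 of 35 members (17.1%), against 9.27% of all genes: 4 were higher (background 3.96%) and 2 lower (background 5.31%). The fold change was negative in 24 of 35 members (68.6%), against 56.5% of all genes, and its median was -0.099, against -0.024 over all genes. With each library centred on its median, 20 of 35 were negative. TGFB3 and LTBP1 kept an unadjusted p under 0.05 in limma with any 1 of the 7 libraries left out. LTBP1 lost it with the replicate number as a block, and with hrLuc replicate 2 and S100a1 replicate 4 both left out. Without hrLuc replicate 1 the members with such a p numbered 3 (TGFB3, LTBP1 and CCN1), and without S100a1 replicate 2 they numbered 8. For fits with a library left out, the share of all genes with such a p is not given here. In this bulk tissue, fewer cells of a type and less RNA per cell cannot be told apart.

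How large a difference these 7 libraries leave room for was read from the 95% intervals. In 27 of 35 members (77.1%) the whole interval lay inside a 1.5-fold change in either direction, which was so for 68.4% of all genes. These 27 include all 6 receptors, all 6 signal-transducing SMADs and all 3 latency proteins. The other 8 were the ligands TGFB3, INHBB, BMP2 and BMP4, the inhibitor FST and the targets ID2, CCN1 and CCN4, for which a 1.5-fold difference was not excluded.

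**Figure D1:**
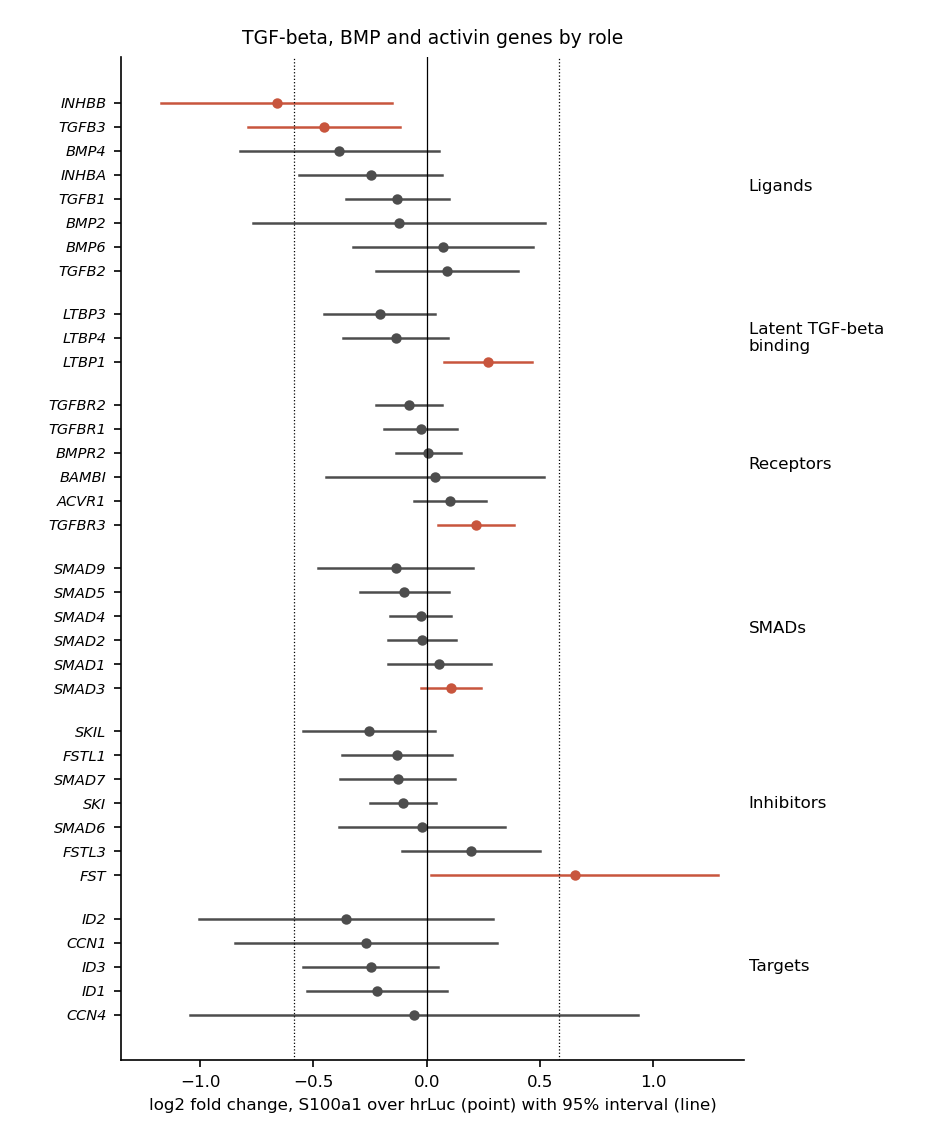
log2 fold change of the 35 tested members, S100a1 (n = 4) over hrLuc (n = 3), grouped by role, with the limma estimate as a point, its 95% interval as a line and dotted lines at a 1.5-fold change. Red marks the 6 members whose groups did not overlap; the receptor and SMAD intervals lie inside the dotted lines, and the widest intervals are those of FST, CCN4, ID2 and BMP2.

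Among the TGF-beta ligands the isoforms differed in their values. TGFB3, an isoform made by mesenchymal cells (chromosome 7, 99133873 to 99162239, build Sscrofa11.1, overlapping IFT43), was measured at 726, 1102 and 758 in hrLuc replicates 1 to 3 and 629, 544, 662 and 645 in S100a1 replicates 1 to 4. All 4 S100a1 values lay below the 3 hrLuc values, and hrLuc replicate 2 was far above the other libraries. This gave a log2 fold change of -0.45 ± 0.15 (95% interval -0.79 to -0.12, adjusted p = 0.541 in limma, exact two-sided permutation p = 0.0286, the smallest that 35 splits allow). Without hrLuc replicate 2 the fold change was -0.26, and without hrLuc replicate 1 it was -0.56. The 3 TGFB3 transcript rows gave log2 fold changes of -0.50 to -0.45. Of the fibroblast markers, 9 of 10 were also negative (all genes 56.5%), none past the adjusted threshold, and their summed level was 134801 to 156029 in hrLuc and 87753 to 140219 in S100a1, with no marker at 0. Of the mural markers (smooth muscle cells and pericytes), 9 of 10 were negative, none past the adjusted threshold, with sums of 20222 to 27789.8 in hrLuc and 19043 to 23191 in S100a1 when DES, which cardiomyocytes also express, is left out. The other cell type lists differed in sign. Negative fold changes were found in 8 of 9 T and NK cell, 7 of 10 endothelial and 5 of 10 macrophage markers. They were found in 4 of 11 cardiomyocyte, 1 of 5 adipocyte and 0 of 5 Schwann cell markers. The part of fibroblasts or mural cells in the TGFB3 values was not tested.

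TGFB1, the isoform best known in fibrosis, was at 1324, 1327 and 1337 in hrLuc replicates 1 to 3 and 1031, 1193, 1274 and 1389 in S100a1 replicates 1 to 4. The 3 hrLuc libraries were nearly equal, and S100a1 replicate 4 lay above them while the other 3 lay below (log2 fold change -0.13 ± 0.10, 95% interval -0.36 to 0.096). TGFB2, an isoform prominent in heart development, was at 1004, 1161 and 1122 in hrLuc replicates 1 to 3 and 1368, 1341, 929 and 1076 in S100a1 replicates 1 to 4. Its S100a1 libraries included both the highest values (replicates 1 and 2) and the lowest (replicate 3), and the log2 fold change was 0.089 ± 0.14.

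The activin subunit genes had negative fold changes. INHBB, which encodes the beta B subunit (chromosome 15, 30999994 to 31004405), had few reads (28 to 57 a library). Its normalized count was 53.6, 42.8 and 52.3 in hrLuc replicates 1 to 3 and 32.8, 36.7, 31.3 and 24.4 in S100a1 replicates 1 to 4. The groups did not overlap, and S100a1 replicate 4 was lowest. The estimate was -0.66 ± 0.22 on the log2 scale (95% interval -1.17 to -0.15, adjusted p = 0.541 in limma, exact two-sided permutation p = 0.0286), and it ran from -0.76 to -0.55 with a library left out. INHBA, the beta A subunit, is listed by RefSeq at chromosome 12, 53115379 to 53117128, as a locus of the class other, not protein-coding, so what its row measures is uncertain. It was at 313, 289 and 293 in hrLuc replicates 1 to 3 and 217, 317, 241 and 239 in S100a1 replicates 1 to 4. Replicate 2 of S100a1 was the highest library of all and the other 3 lay below every hrLuc library (log2 fold change -0.25 ± 0.14, adjusted p = 0.643 in limma).

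The BMP ligand genes overlapped between the groups. BMP4, which acts through SMAD1, SMAD5 and SMAD9, was at 156, 185 and 139.7 in hrLuc replicates 1 to 3 and 107, 96.7, 155 and 137 in S100a1 replicates 1 to 4. Its highest 2 values were hrLuc libraries and its lowest 2 were S100a1 replicates 1 and 2 (log2 fold change -0.39 ± 0.19, adjusted p = 0.622 in limma). BMP6, known as an iron-regulating ligand of endothelium, was at 1182, 1165 and 754 in hrLuc replicates 1 to 3 and 1168, 1239, 904 and 980.1 in S100a1 replicates 1 to 4, with a log2 fold change of 0.072 ± 0.17. BMP2, a close relative of BMP4, had 35 to 83 reads a library with a hrLuc mean of 57.3 ± 18.5 (SD, n = 3) and a S100a1 mean of 52.3 ± 14.5 (SD, n = 4) (log2 fold change -0.12 ± 0.28), and its sign turned without hrLuc replicate 1 (0.12). GDF15, a divergent family member secreted by stressed cells, had 1 to 7 reads a library, too few to be tested.

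**Figure D2:**
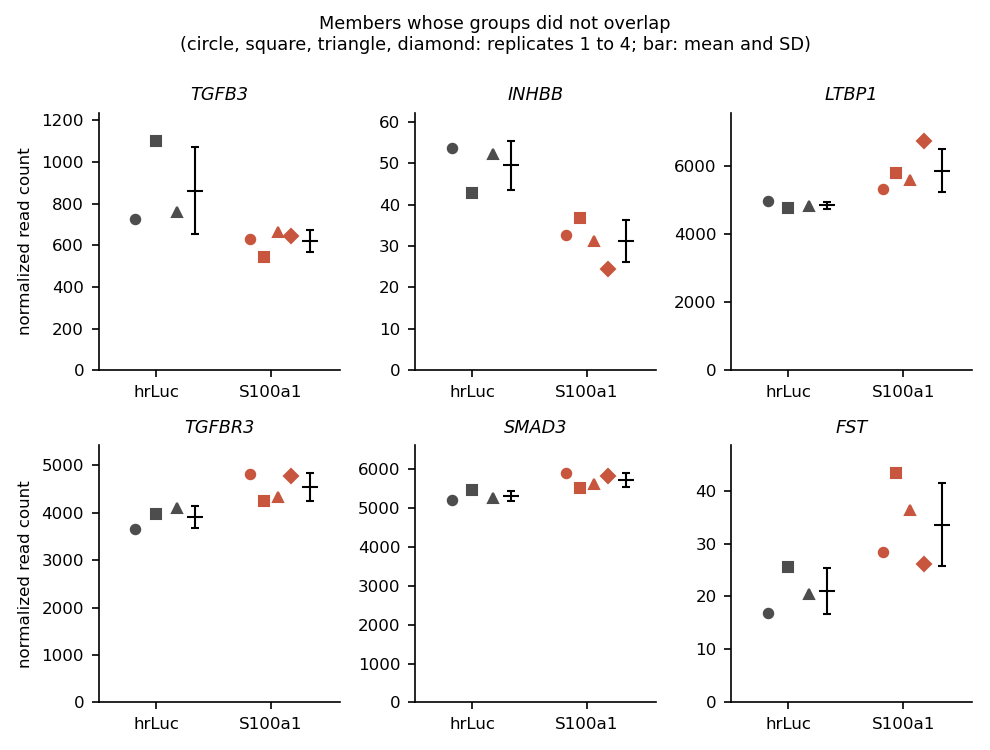
Normalized read count of the 6 members whose groups did not overlap, 1 symbol per library, with the mean and SD of each group as a bar (hrLuc n = 3, S100a1 n = 4) and each axis starting at 0. TGFB3 and INHBB were lower and LTBP1, TGFBR3, SMAD3 and FST higher in every S100a1 library, and the step is small for SMAD3 (log2 fold change 0.11).

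Of the 3 latency proteins, LTBP1 had a positive fold change without overlap of the groups, and the others had negative fold changes. LTBP1, which anchors latent TGF-beta in the matrix (chromosome 3, 106300748 to 106724538, overlapping 3 loci without a gene name), was at 4962, 4750.3 and 4812 in hrLuc replicates 1 to 3 and 5305, 5797, 5587 and 6741 in S100a1 replicates 1 to 4. The 3 hrLuc libraries were close together, every S100a1 library lay above them, and replicate 4 was highest. The log2 fold change was 0.27 ± 0.086 (95% interval 0.075 to 0.46, adjusted p = 0.535 in limma, exact two-sided permutation p = 0.0571). It ran from 0.20 to 0.31 with a library left out. LTBP3, which also binds latent TGF-beta, was at 1744, 1715 and 1523 in hrLuc replicates 1 to 3 and 1189, 1448, 1566 and 1571 in S100a1 replicates 1 to 4. Its hrLuc replicate 3 lay below S100a1 replicates 3 and 4, and the fold change was -0.21 ± 0.11 (adjusted p = 0.634 in limma). LTBP4, known for elastic fibre assembly besides latency, was at 11627, 11855 and 12800.1 in hrLuc replicates 1 to 3 and 9159, 12049, 11199 and 11803 in S100a1 replicates 1 to 4. S100a1 replicate 1 was the lowest library, and the log2 fold change of -0.14 ± 0.10 became -0.049 without it. For LTBP3 the value without that library was -0.12.

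The receptor genes among the members differed by small amounts. TGFBR3, or betaglycan, a co-receptor that presents TGF-beta2 and also binds inhibin (chromosome 4, 125109939 to 125310788, overlapping 2 loci without a gene name), was at 3652, 3974 and 4100.1 in hrLuc replicates 1 to 3 and 4819, 4249, 4335 and 4781 in S100a1 replicates 1 to 4. Every S100a1 value lay above the hrLuc values, although S100a1 replicate 2 and hrLuc replicate 3 were close. On the log2 scale the difference was 0.22 ± 0.074 (95% interval 0.048 to 0.39, adjusted p = 0.541 in limma, exact two-sided permutation p = 0.0571), and it was 0.17 to 0.25 with a library left out. Its 3 distinct transcript rows gave 0.20 to 0.28.

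The signalling receptors among the members lay near 0 on the fold change scale. TGFBR1, the type I receptor kinase of TGF-beta, had a hrLuc mean of 1302 ± 36.8 (SD, n = 3) and a S100a1 mean of 1279 ± 78.8 (SD, n = 4), and its log2 fold change was -0.028 ± 0.072 (95% interval -0.19 to 0.14). TGFBR2, the type II kinase that binds the ligand, was at 5871, 6057 and 5793 in hrLuc replicates 1 to 3 and 5479.5, 5287, 5662 and 5960.3 in S100a1 replicates 1 to 4. S100a1 replicates 1 to 3 lay below all hrLuc libraries and replicate 4 lay among them (log2 fold change -0.079 ± 0.064, 95% interval -0.22 to 0.066). BMPR2, the type II BMP receptor, had a hrLuc mean of 4784 ± 315 (SD, n = 3) and a S100a1 mean of 4801 ± 56.2 (SD, n = 4), and its interval of -0.14 to 0.15 around 0.0072 was centred most closely on 0 of all members. ACVR1, a type I receptor for BMPs and activins, was at 4173, 3979 and 4071 in hrLuc replicates 1 to 3 and 4091, 4731, 4520.3 and 4172 in S100a1 replicates 1 to 4, with a log2 fold change of 0.10 ± 0.070. BAMBI, a decoy receptor without a kinase domain, had 55 to 85 reads a library and a hrLuc mean of 66.0 ± 9.02 (SD, n = 3) and a S100a1 mean of 68.3 ± 13.2 (SD, n = 4), giving a log2 fold change of 0.036 ± 0.21.

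SMAD3 and SMAD4 had the narrowest 95% intervals of the 35 members. SMAD3, which carries the TGF-beta and activin signal (chromosome 1, 164998457 to 165124455, overlapping AAGAB), was at 5222, 5465 and 5274 in hrLuc replicates 1 to 3 and 5914, 5528, 5618 and 5835 in S100a1 replicates 1 to 4. The S100a1 libraries all lay above the hrLuc libraries, but the nearest 2, S100a1 replicate 2 and hrLuc replicate 2, were close together. The log2 fold change was 0.11 ± 0.059 (95% interval -0.028 to 0.24, adjusted p = 0.643 in limma, exact two-sided permutation p = 0.0571), and its unadjusted p of 0.106 in limma missed 0.05. SMAD2, the partner of SMAD3 in this arm, had a hrLuc mean of 2972 ± 114 (SD, n = 3) and a S100a1 mean of 2931 ± 148 (SD, n = 4) (log2 fold change -0.021 ± 0.066). SMAD4, the partner shared by both arms, had a hrLuc mean of 7006 ± 184 (SD, n = 3) and a S100a1 mean of 6879 ± 206 (SD, n = 4) (-0.027 ± 0.059).

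The SMADs of the BMP arm overlapped between the groups. SMAD1 was at 1620.5, 2044 and 1578 in hrLuc replicates 1 to 3 and 1831, 1666, 1809.6 and 1911 in S100a1 replicates 1 to 4, with hrLuc replicate 2 highest and a log2 fold change of 0.055 ± 0.10. SMAD5 was at 3806, 4195 and 3864 in hrLuc replicates 1 to 3 and 3197, 3905, 3731 and 3983 in S100a1 replicates 1 to 4, with S100a1 replicate 1 lowest and a log2 fold change of -0.099 ± 0.087. SMAD9, also called SMAD8, had a hrLuc mean of 201 ± 32.1 (SD, n = 3) and a S100a1 mean of 182 ± 21.2 (SD, n = 4) (-0.14 ± 0.15). The 95% interval of each of these 3 included 0.

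Of the inhibitors, FST was the one whose groups did not overlap. FST encodes follistatin, which binds activins and keeps them from their receptors (chromosome 16, 32806341 to 32811382). It had 18 to 44 reads a library, and its normalized count was 16.9, 25.7 and 20.4 in hrLuc replicates 1 to 3 and 28.4, 43.4, 36.2 and 26.2 in S100a1 replicates 1 to 4. Every S100a1 value was above the hrLuc values, with S100a1 replicate 4 and hrLuc replicate 2 nearly equal. The estimated log2 fold change was 0.65 ± 0.28 (95% interval 0.021 to 1.29, adjusted p = 0.582 in limma, exact two-sided permutation p = 0.0571), and it ran from 0.51 to 0.80 with a library left out. FSTL3, a follistatin relative that also binds activins (overlapping PRSS57), was at 617, 751 and 698 in hrLuc replicates 1 to 3 and 762, 768, 661 and 985 in S100a1 replicates 1 to 4. Its S100a1 replicate 4 was the highest library, and without it the log2 fold change of 0.20 ± 0.14 was 0.087. FSTL1, a secreted glycoprotein of the same family made by heart stromal cells, had a hrLuc mean of 9629 ± 1269.7 (SD, n = 3) and a S100a1 mean of 8778 ± 845 (SD, n = 4) (-0.13 ± 0.11). GREM1, which binds BMPs, had 0 to 13 reads a library and was not tested.

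The intracellular inhibitors overlapped between the groups. SKIL, a nuclear repressor of SMAD transcription that is itself induced by TGF-beta, was at 2168, 2041 and 1769 in hrLuc replicates 1 to 3 and 1442, 1989.8, 1813 and 1471 in S100a1 replicates 1 to 4. S100a1 replicates 1 and 4 lay far below the other 5 libraries (log2 fold change -0.26 ± 0.13, adjusted p = 0.620 in limma). SKI, its homologue, was at 4007, 4118 and 3832 in hrLuc replicates 1 to 3 and 3578, 3676, 3982 and 3599 in S100a1 replicates 1 to 4. All S100a1 libraries but replicate 3 lay below hrLuc, and the log2 fold change was -0.10 ± 0.065. SMAD7, which targets the TGF-beta receptor for degradation, was at 1579, 1506 and 1318 in hrLuc replicates 1 to 3 and 1222, 1617, 1288 and 1260.3 in S100a1 replicates 1 to 4 (-0.13 ± 0.11). SMAD6, which acts mainly on the BMP arm, was at 2078, 2075 and 1573 in hrLuc replicates 1 to 3 and 2177, 2152, 1428 and 1812 in S100a1 replicates 1 to 4 (-0.021 ± 0.16).

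All 5 target genes had negative fold changes (all genes 56.5%), with a median of -0.25 against -0.024 over all genes, and none had an unadjusted p under 0.05 in limma. Of 9 further targets tested, 7 were negative and 2 positive, 1 of these being CCN2 (0.46 ± 0.31), described at the end. For CCN4 the sign rests on the log scale: its group mean was higher in S100a1, and its fold change was positive in edgeR and DESeq2 (0.056 and 0.057). Immediate early genes, a class induced quickly by many stimuli, were negative in 14 of 19 (all genes 56.5%, median -0.16). None passed the adjusted threshold. At an unadjusted p under 0.05 in limma, 1 was higher (MYC, 0.55 ± 0.15) and 5 were lower, against 3.69% and 4.57% of all genes. The summed levels of the list were 19923 to 31366 in hrLuc and 18759 to 26133 in S100a1. Without NR4A3, the most abundant, the sums were 16862 to 20814 in hrLuc and 15175 to 21356 in S100a1, highest in S100a1 replicate 2. Markers of T and NK cells were negative in 8 of 9 (all genes 56.5%, median -0.80), with none past the adjusted threshold. The summed levels were low, 509 to 983 in hrLuc and 422 to 561 in S100a1. In 8 of 10 of these markers hrLuc replicate 1 was the highest library, and GZMA was at 0 in 2 S100a1 libraries. The part of either list in the target genes was not tested. The ID genes encode inhibitors of basic helix-loop-helix factors and are well known BMP targets. ID3 was at 1364, 1229.5 and 1335 in hrLuc replicates 1 to 3 and 1068, 1421, 1034 and 938 in S100a1 replicates 1 to 4. S100a1 replicates 1, 3 and 4 lay below hrLuc and replicate 2 above it (log2 fold change -0.25 ± 0.13, adjusted p = 0.636 in limma, exact two-sided permutation p = 0.200). ID1 was at 676, 676 and 508 in hrLuc replicates 1 to 3 and 515, 616, 535 and 456 in S100a1 replicates 1 to 4 (-0.22 ± 0.14), and ID2 was at 193, 135 and 187 in hrLuc replicates 1 to 3 and 98.3, 200.1, 166 and 93.4 in S100a1 replicates 1 to 4 (-0.36 ± 0.29).

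CCN1, a matricellular protein gene induced by TGF-beta and by stretch (overlapping ZNHIT6), was at 915, 2258 and 1489 in hrLuc replicates 1 to 3 and 1239, 1026, 1350.0 and 1232 in S100a1 replicates 1 to 4. The spread within hrLuc exceeded the difference between the groups: replicate 2 was highest and replicate 1 lowest of all 7 libraries. Its log2 fold change of -0.27 ± 0.25 became 0.047 once hrLuc replicate 2 was left out, and -0.60 once replicate 1 was. CCN4, a WNT-induced relative of CCN1, had 8 to 23 reads a library with a hrLuc mean of 15.4 ± 3.38 (SD, n = 3) and a S100a1 mean of 15.9 ± 7.0 (SD, n = 4) (-0.057 ± 0.44).

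**Figure D3:**
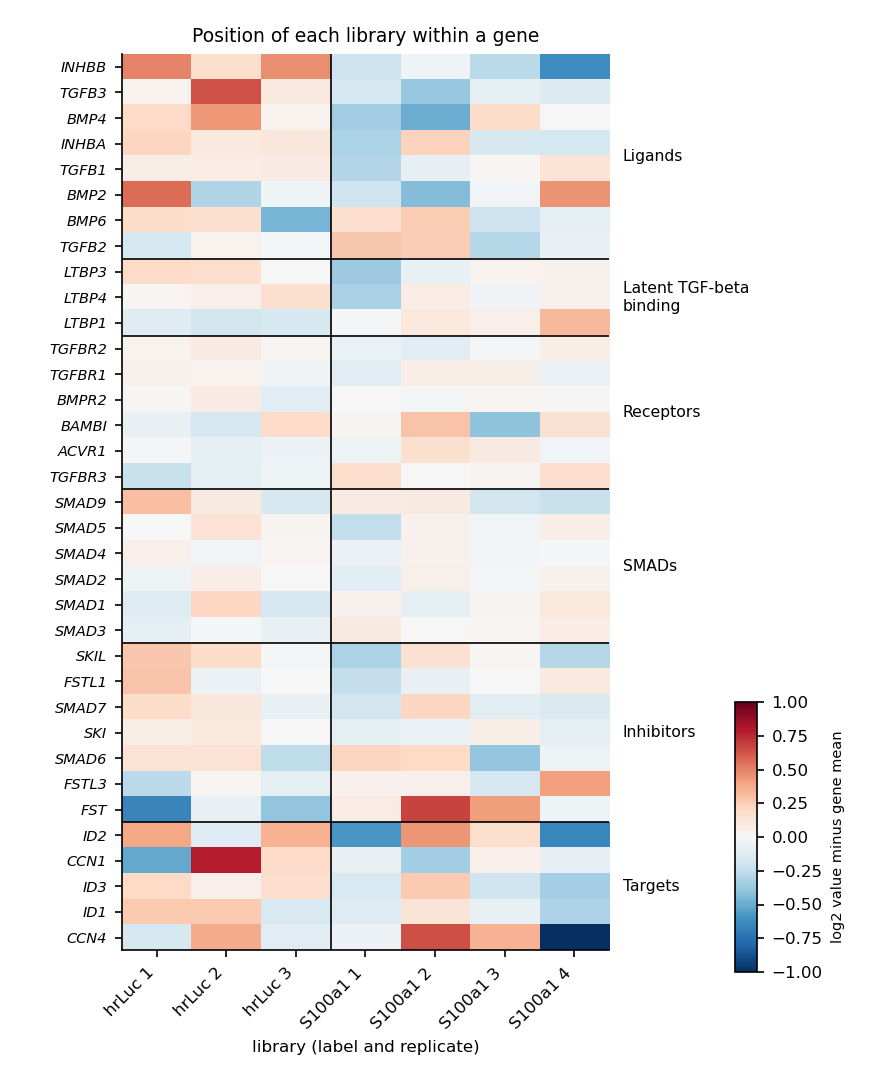
Deviation of each library from the mean of the gene over all 7 libraries, on the log2(value + 0.5) scale, for the 35 tested members in rows (by role) and the 7 libraries in columns; colours end at -1 and 1. S100a1 replicate 1 holds the lowest value in 12 members, and hrLuc replicate 2 and S100a1 replicate 2 hold the highest in 10 members each.

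Of the 7 libraries, S100a1 replicate 2 moved the count of members with a low p the most when left out. Without this library, 8 members had an unadjusted p under 0.05 in limma in place of 5. The share of all genes with such a p in that fit is not given here, so the rise cannot be set against it. INHBA, SMAD7, SKIL and ID3 joined and FST left. The log2 fold change was then -0.36 for INHBA, -0.37 for ID3, -0.34 for SKIL and -0.22 for SMAD7, and none passed the adjusted threshold.

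The rest of the pathway, 95 further ligands, receptors, activators, antagonists, regulators and targets, was described in the same way. Of these, 79 were tested, 32 with a positive and 47 with a negative fold change (median -0.041). None passed the adjusted threshold in limma, and at an unadjusted p under 0.05 there were 3 higher and 4 lower genes, where 3.69% and 4.57% of all genes had such a p. For 79 genes those shares would give about as many, so these 7 do not set the rest of the pathway apart from other genes. The largest of the 7 was INHA (chromosome 15, 121581847 to 121586020). INHA encodes the alpha subunit that pairs with a beta subunit to form inhibin in place of activin. It was at 1198, 651 and 809 in hrLuc replicates 1 to 3 and 173, 241, 659 and 339.5 in S100a1 replicates 1 to 4. S100a1 replicate 3 lay between hrLuc replicates 2 and 3, and the other S100a1 libraries lay below all hrLuc libraries (log2 fold change -1.46 ± 0.41, adjusted p = 0.514 in limma, exact two-sided permutation p = 0.0857). The fold change ran from -1.82 to -1.18 with a library left out.

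BMPR1B, a type I BMP receptor, was at 627, 953 and 385 in hrLuc replicates 1 to 3 and 1081, 1318, 807 and 896 in S100a1 replicates 1 to 4 (log2 fold change 0.72 ± 0.28, adjusted p = 0.573 in limma). Its hrLuc libraries were spread widely, and without hrLuc replicate 3 the value was 0.38. Among the 79 other pathway genes tested, 4 higher and 4 lower genes had groups without overlap. Over all genes the shares were 3.96% and 5.31%, which would give about as many. ITGB6, NEDD4L and KCP are among them. The others, TDGF1 and ZFYVE9 (higher) and BMPR1A, ITGB1 and MAP3K7 (lower), had no unadjusted p under 0.05 in limma. ITGB6, an integrin chain that releases latent TGF-beta, was at 0.26 ± 0.097 with all S100a1 libraries above hrLuc. NEDD4L, a ubiquitin ligase that acts on activated SMAD2 and SMAD3, was at 0.20 ± 0.085, also without overlap. On the lower side, KCP, a secreted modulator of BMP signalling (overlapping IRF5), was at -0.37 ± 0.16 with the groups apart. FBN1, the microfibril protein that holds latent TGF-beta complexes, was at -0.31 ± 0.14, and PMEPA1, a TGF-beta-induced inhibitor of SMAD activation, at -0.32 ± 0.14. Without S100a1 replicate 1 FBN1 was at -0.21, and without hrLuc replicate 1 at -0.19. PMEPA1 was at -0.52 without hrLuc replicate 3 and -0.23 without hrLuc replicate 2.

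BMPR1A, a type I receptor for BMP2 and BMP4, gave different values in different transcript rows. Its gene overlaps MMRN2, an endothelial matrix glycoprotein gene that fell in S100a1 (log2 fold change -0.89 ± 0.088, adjusted p = 0.0300 in limma, lower in 4 of 4 libraries). No gene was called lower when any 1 S100a1 library or hrLuc replicate 3 was left out. The BMPR1A row with the most reads was at 3650.2, 3735 and 3591 in hrLuc and 3581, 3221, 3460.3 and 3527 in S100a1, which is -0.087 ± 0.062 on the log2 scale. The row with the fewest reads was at 1296, 1216 and 1212 in hrLuc and 805, 875, 892 and 843 in S100a1 (log2 fold change -0.54, adjusted p = 0.121 in limma). Over its 5 distinct rows the fold change ran from -0.54 to -0.087. Whether reads of MMRN2 are counted in the lower rows was not tested. Among the 37 members, 16 had more than 1 distinct row past the filter. Their rows differed by at most 0.074 in log2 fold change, and SMAD2 was the 1 gene whose rows lay on both sides of 0 (-0.021 to 0.025). Another gene overlapped 13 of the 37 members, so their counts can hold reads of that gene.

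In the authors' deposited table all 37 members have an adjusted p, 0 are under 0.05 (of all genes tested here, 0.728% are), and the lowest is that of TGFB3 (0.18). The log2 fold change of the authors' deposited table is -0.47 for TGFB3, -0.67 for INHBB, 0.27 for LTBP1, 0.22 for TGFBR3 and 0.68 for FST. Its sign is the same as that of the limma estimate in 34 of the 35 members tested, the exception being CCN4.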

How the data were processed

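RNA from 7 pig hearts was extracted with a Qiagen kit and sequenced after ribosomal RNA depletion, per the labels' protocols. The submitters' processing notes list the build Sscrofa11.1 and the tools DESeq2 1.33.1, FastQC 0.11.8 and R 4.1.2. The aligner, the read counter and whether it used strand are not stated there or in the labels. The deposited values are a signal, the reads of a transcript row scaled by a size factor, and 100% of the values were whole multiples of what 1 read is worth, within 0.01 read. The deposited log2 and ratio (fold change) columns and the deposited adjusted p-value were used as the authors' own.

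The members and lists were chosen with earlier results of these data known. All 63562 rows matched the RefSeq table of Sscrofa11.1, which gave positions and overlaps, and the row of highest mean was kept for each of 20653 genes. limma 3.58.1 (R 4.3.3) with a mean-variance trend was fitted to log2(value + 0.5), two-sided, adjusted by Benjamini-Hochberg over 15660 genes, without covariates. The rule names every member, and gives values by library where the unadjusted p is under 0.05 or the groups do not overlap; more members are given that way here. Other pathway genes are named at an unadjusted p under 0.05, and BMPR1A for its overlap with MMRN2. Sequences are not shown. Alternatives were other scalings, filters and pseudocounts, the lowest transcript row, a replicate block, each library left out, 1 pair of libraries left out, and edgeR 4.0.16 and DESeq2 1.42.0 on recovered reads. The fitting code was also tested on simulated data. The limma p-values set the group difference against the spread between libraries within a group, drawn towards a trend over all genes. Each library came from its own pig by title. An exact permutation test has 35 splits and a smallest p of 0.0286.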

Additional observations from a re-analysis of the deposited data

Results flagged for a closer look

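SMAD7 in S100a1 replicate 2 stood far from the other 3 libraries of its group. Its normalized read count was 1617, against 1222, 1288 and 1260.3 in replicates 1, 3 and 4, and the gap to the nearest of them was 0.832 of the range of the group. The 37 members were examined this way in the S100a1 group, chance flags about 5% of such groups, and 1 was found. Groups of 3 were not examined, so the high CCN1 and TGFB3 values of hrLuc replicate 2 were not. Without S100a1 replicate 2 the log2 fold change of SMAD7 was -0.22 (adjusted p = 0.555, limma), and with all libraries it was -0.13.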

How the results depend on the processing

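No member passed the adjusted threshold in any of the 18 alternatives, the lowest adjusted p being 0.171 (LTBP1). The sign held for 24 members in every alternative that tested them, among them the 6 whose groups did not overlap. It turned in at least 1 for the other 11, all with small or widely spread differences; the cause was not tested. With a library left out the ranges of these were BAMBI (-0.053 to 0.18), BMP2 (-0.31 to 0.12), BMP6 (-0.14 to 0.18), BMPR2 (-0.044 to 0.051), CCN1 (-0.60 to 0.047), CCN4 (-0.28 to 0.28), SMAD1 (-0.014 to 0.17), SMAD2 (-0.046 to 0.012), SMAD4 (-0.046 to -0.0082), SMAD6 (-0.15 to 0.11) and TGFBR1 (-0.055 to 0.0063). Turned values elsewhere were -0.012 for BMPR2 with quantile normalization, 0.026, 0.020, 0.026 and 0.019 for SMAD2, SMAD4, SMAD6 and TGFBR1 with median centring, 0.0054 for SMAD2 in its lowest row, 0.056, 0.0014 and 0.0075 for CCN4, SMAD2 and SMAD6 in edgeR, and 0.057 and 0.0061 for CCN4 and SMAD6 in DESeq2. With hrLuc replicate 2 and S100a1 replicate 4 both left out (chosen after seeing the data), BAMBI was at -0.089, SMAD6 at 0.060, CCN1 at 0.037 and CCN4 at 0.45, 3 members had an unadjusted p under 0.05, and over all genes 0 were called higher. The median over the members stayed between -0.13 and -0.046, and the number of negative members between 20 and 27. The number with an unadjusted p under 0.05 was 3 to 8 with a library left out and 3 with the filter of 50, which removed INHBB and FST. It was 2 with the replicate block (TGFB3 and FST). The share of all genes with such a p is not given for these fits. Over all genes, calls numbered 0 to 1 higher and 0 to 3 lower with a library left out, 54 higher and 35 lower in DESeq2, 0 lower with median centring and 2 higher with quantile normalization.

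By the labels, same-numbered libraries share only a number. Their deviations from the group means correlated by -0.075 to 0.082 over genes, and those of other pairs by -0.16 to 0.19. Not every library correlated best with its own number. So few pairs cannot show whether same-numbered libraries were handled together. With the replicate number as a block, over all genes 0 were called higher and 0 lower, BAMBI was at -0.010 and CCN4 at 0.28. S100a1 replicate 4 has no partner and drops out of that estimate.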

Other observations

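CCN2, the connective tissue growth factor gene and a classical TGF-beta target, was looked at after its values were seen. It was at 1907, 2881 and 2702 in hrLuc replicates 1 to 3 and 6283, 2329, 3419.9 and 2577 in S100a1 replicates 1 to 4. S100a1 replicate 1 was far above the other 6 libraries, which overlapped between the groups. The log2 fold change was 0.46 ± 0.31 (adjusted p = 0.697, limma) and 0.16 without that library. In the same library CCN1, its relative, was at 1239, inside the range of the other S100a1 libraries.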
